A study of Homo sapiens with 48 samples.

Results

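RNA from 22Rv1, a human castration-resistant prostate cancer cell line, was compared between SNX631 and vehicle in dKO-8, a derivative whose own CDK8 and CDK19 genes were knocked out with CRISPR/Cas9 and which then received wild-type CDK8 from a vector. SNX631 inhibits the kinase activity of both proteins, so CDK8 was its intended target in these cells. The comparison took all dKO-8 libraries of the series: 3 cultures given 500 nM SNX631 and 3 given 0.1% DMSO, each for 72 hours in medium with FBS, which makes 6 of 48 libraries. Of 61815 genes in the table, 20009 had enough counts to be tested, by a filter over all 48 libraries. With only the 6 dKO-8 libraries, 16885 genes passed it. All dKO lines share the double knockout, and the SNX631 effect in dKO-8 was set beside that in dKO-8M, which carries CDK8 with the kinase-inactivating mutation D173A, in dKO-19, which carries wild-type CDK19, and in Rv1-WT, the unedited parental line, all in FBS with the same dose and time. Counts of shared calls also used dKO-19M, which carries kinase-inactive CDK19, and Rv1-WT in androgen-depleted CSS medium. They further used the luciferase-carrying subline Rv1-Luc in FBS and in CSS. The methods of the study call its RNA-seq replicates biological, and whether a dKO line is 1 clone is not given in the sources used here.

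CDK8 and CDK19 are alternative kinases of the Mediator kinase module, which also holds cyclin C (CCNC), MED12 and MED13 or their paralogs and binds the Mediator complex that links transcription factors to RNA polymerase II. The module is known for tuning how strongly inducible genes are transcribed, in either direction. Among those inducible programs, the integrated stress response is run by the transcription factor ATF4, which raises genes for amino acid synthesis, amino acid uptake and tRNA charging.

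The 6 libraries held 19.7 to 26.3 M counts, and library profiles were closer within a treatment (Pearson's r across genes 0.9962 to 0.9971) than between treatments (0.9926 to 0.9935). Levels are given as CPM, the counts of a gene relative to the scaled library total (TMM), in the order of replicates 1, 2 and 3, and fold changes as log2 of SNX631 over vehicle with the standard error of the fit. Every FDR is the Benjamini-Hochberg adjusted p of edgeR's quasi-likelihood test over all 20009 genes, and a gene was called at an FDR under 0.01 and a fold change over 1.5. CDK8 read 71.5, 67.4 and 67.1 CPM in vehicle and 67.4, 64.7 and 60.5 CPM with SNX631 (log2 fold change −0.09, SE 0.0464, FDR 0.187), and the groups overlapped. CDK19 read 101, 103 and 105 CPM in vehicle and 135, 125 and 124 CPM with SNX631, a separation without overlap that passed the FDR limit but not the fold limit (0.31, SE 0.044, FDR 1.54e-07). The knockout cannot be checked from these counts, since RNA from an edited locus is still counted. CDK8 averaged 68.7 CPM in vehicle dKO-8, 123 in dKO-8M, 27.7 in dKO-19 and 26.8 in Rv1-WT, while CDK19 averaged 103, 123, 510 and 149 CPM in the same order. These are RNA levels and do not give the amount of kinase. By Western blot, the study reports less CDK8 protein in dKO-8 than in parental cells, and far more CDK19 protein in dKO-19. CCNC, MED12, MED12L, MED13 and MED13L, the other module members, had log2 fold changes from −0.05 to 0.10 and FDRs of 0.765 or more.

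SNX631 changed 342 of 20009 genes in dKO-8, 1.71% of those tested. The 131 higher genes were 0.655% and the 211 lower genes 1.05% of all tested. The median fold was 1.90 among higher genes and 1.78 among lower genes. Changes over 2-fold numbered 56 higher and 72 lower, and changes over 4-fold numbered 14 higher and 6 lower. Without a fold limit, 2705 genes (13.5%) had an FDR under 0.05, of which 1226 were higher (6.13%) and 1479 lower (7.39%). Thus most of the detectable effect was small, and the median over all genes was 0. Protein-coding genes made up 109 of the higher and 173 of the lower calls, with 13 and 19 lncRNAs. In bulk RNA, fewer cells with a transcript and less of it per cell cannot be told apart.

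**Figure D1:**
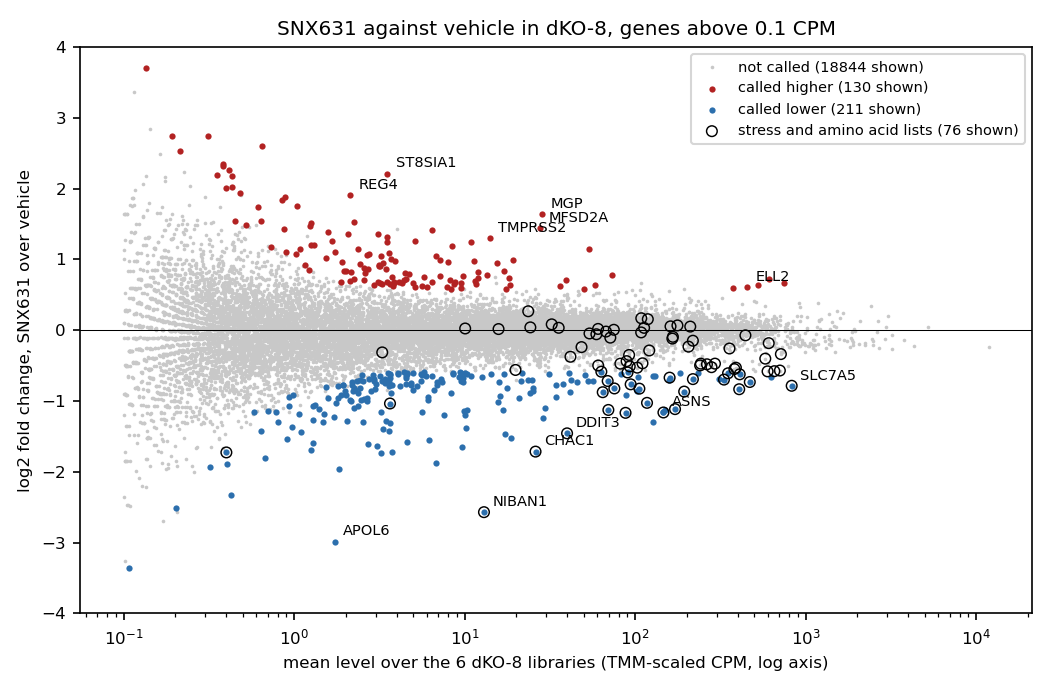
Each point is a gene in dKO-8, with its mean level over 6 libraries (CPM, log axis) on the x axis and its log2 fold change of SNX631 over vehicle on the y axis, red and blue for genes called higher and lower and circles for the stress and amino acid lists. Genes under 0.1 CPM are not drawn, and most of the 76 circled genes lie below 0, with NIBAN1, CHAC1 and DDIT3 farthest below the genes of their level.

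Many genes of the integrated stress response and its amino acid program fell. Of 76 tested genes in 4 lists (stress regulators, amino acid synthesis, amino acid transporters and cytosolic tRNA synthetases), 26 were called lower and 0 higher, where 1.05% of all genes were called lower. The lists were chosen with earlier results of these data known, so their shares describe these genes and are no independent test. In 56 of the 76 all SNX631 libraries lay below all vehicle libraries, against 18.1% of all genes (17.4% of all genes lay above). At an FDR under 0.05 without the fold limit, 52 were lower and 3 higher, the median log2 fold change was −0.48 against 0 over all genes, and the 4 lists held 12.3% of all lower calls. A composite element of C/EBP and ATF factors, read here as TGATGNAA on either strand, is how ATF4 is known to reach such promoters. It occurred in the 300-base promoter window (250 bases before to 50 after a RefSeq start, GRCh38.p14) of 10 of the 22 called genes of these lists that have a window (45.5%), in 10 of 37 list genes that were not called (27%), in 20 of 144 of all lower genes (13.9%), in 1 of 86 higher genes (1.16%) and in 357 of 12633 tested genes (2.83%). Over all 27305 genes with a window the share was 4.46%. The 144 lower genes include the 22 called list genes, so the 13.9% is not separate from the 45.5%. Some genes have several windows, and a match in any of them counted. The 144 lower genes had 263 windows and the 86 higher genes 118. Per window, the shares were 30% for called list genes, 18.5% for list genes not called and 8.37% for all lower genes. They were 0.847% for higher genes, 2.09% for tested genes and 3.62% for all windows. The stretches around the match are shown for called genes of the stress, synthesis and transporter lists, because they show which letters these genes shared. The match is in capitals and printed in the direction of the gene. SLC3A2 also had a match but is not printed, and SARS1, the only called tRNA synthetase, had none. A match is a description of letters and not a bound site.
ASNS, chr7:97872459-97872486, minus strand, match 68 bases before the start: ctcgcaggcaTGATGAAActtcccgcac
MTHFD1L, chr6:150866347-150866374, plus strand, 129 bases before: ccgccggctcTGATGCAAtcgcgccggg
SLC1A5, chr19:46784894-46784921, minus strand, 97 bases before: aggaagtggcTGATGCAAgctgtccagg
SLC1A4, chr2:64989382-64989409, plus strand, 7 bases before: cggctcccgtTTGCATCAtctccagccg
CEBPG, chr19:33374061-33374088, plus strand, 42 bases before: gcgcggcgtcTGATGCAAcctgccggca
ATF3, chr1:212565206-212565233, plus strand, 191 bases before: aaggtcaggaTGATGGAAggctgtcata
CHAC1, chr15:40953252-40953279, plus strand, 209 bases before: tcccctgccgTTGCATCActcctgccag
JDP2, chr14:75427996-75428023, plus strand, 16 bases before: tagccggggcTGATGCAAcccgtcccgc
FGF21, chr19:48755460-48755487, plus strand, 54 bases before: aacaccaggaTTGCATCAgggaggagga
The matches in SLC1A4, CHAC1 and FGF21 read on the opposite strand (TTGCATCA).

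Among the stress regulators, 13 of 22 genes were called lower and none higher, with a median log2 fold change of −0.68, and their summed level went from 2781 to 2889 CPM in vehicle libraries to 1821 to 1847 CPM with SNX631. DDIT3 (CHOP, chr12:57516588-57521737), a C/EBP family factor of the terminal stress response, read 57.0, 60.1 and 58.1 CPM in vehicle and 21.5, 21.6 and 20.6 CPM with SNX631. Its groups lay far apart and it had the lowest p of the list (−1.46, SE 0.0584, FDR 1.04e-27). Its counts were fractional in 58.3% of libraries, so its level is uncertain. NIBAN1 (chr1:184790724-184974550), a stress-induced cytoplasmic protein, read 22.6, 22.7 and 21.3 CPM in vehicle and 3.40, 3.94 and 3.87 CPM with SNX631 (−2.57, SE 0.131, FDR 3.44e-20). Its SNX631 libraries lay far below all vehicle libraries. CHAC1 (chr15:40952962-40956519), which degrades glutathione, read 39.3, 40.4 and 39.97 CPM in vehicle and 11.6, 12.4 and 12.4 CPM with SNX631 (−1.71, SE 0.154, FDR 1.56e-10), again without overlap. 4EBP1 (EIF4EBP1), a repressor of cap-dependent translation, fell by 0.76, the C/EBP partner CEBPG by 0.67, the secreted glycoprotein STC2 by 0.72 and the stress factor ATF3 by 0.60 on the log2 scale. ATF3 slipped under a 1.5-fold change when vehicle replicate 1 or SNX631 replicate 3 was left out, with log2 fold changes from −0.62 to −0.58 over the 6 fits that leave out 1 library.

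The list members past the first 6 by p were added after their values were seen. DDIT4, an mTORC1 inhibitor, read 118, 121 and 126 CPM in vehicle and 55.4, 53.7 and 53.0 CPM with SNX631 (−1.17). SESN2, a leucine sensor and mTORC1 inhibitor, read 96.7, 96.6 and 93.0 CPM in vehicle and 42.6, 45.2 and 43.2 CPM with SNX631 (−1.13). Neither gene had overlapping groups. The pseudokinase TRIB3 (−0.70), CEBPB (−0.83), JDP2 (−1.04) and the hormone FGF21 (−1.73), which was under 1 CPM in every library, complete the 13. FGF21 lost its call when any of the 6 libraries was left out (FDR 0.0104 to 0.0892). ATF4 itself read 869, 841 and 817 CPM in vehicle and 567, 558 and 578 CPM with SNX631, which passed the FDR limit but fell just under the fold limit (−0.57, SE 0.0521, FDR 1.91e-12). The stress kinases that act upstream of ATF4 stood at other values. EIF2AK3 (PERK) had a log2 fold change of 0.04 (FDR 0.779) and EIF2AK4 (GCN2) of 0.03 (FDR 0.677). ATF5, a transcription factor and not a kinase, had a log2 fold change of 0.02 (FDR 0.94).

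**Figure D2:**
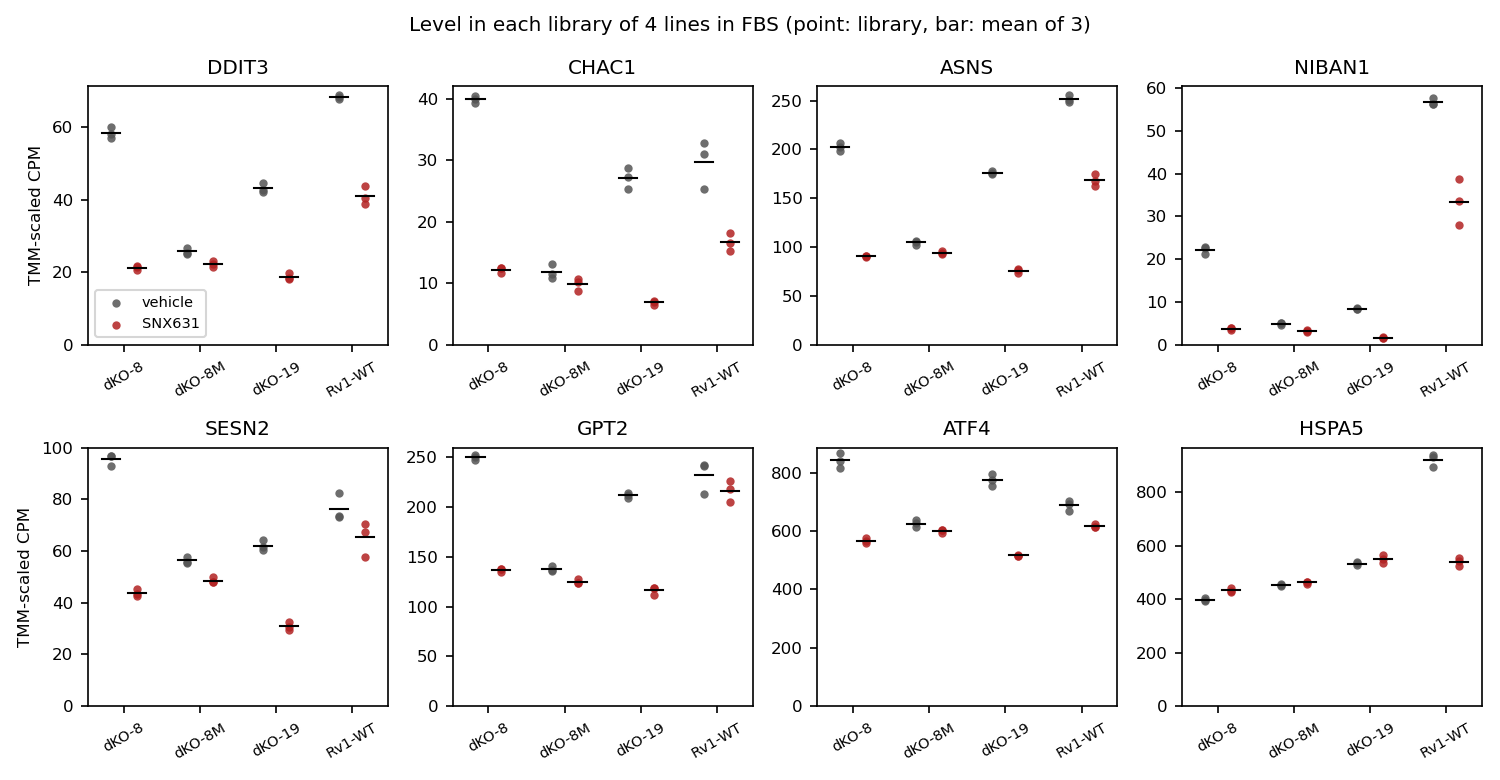
Each of 8 panels shows 1 gene, with TMM-scaled CPM on the y axis and 4 lines in FBS on the x axis, a point for each library (gray vehicle, red SNX631) and a bar for the mean of 3. For DDIT3, CHAC1, ASNS, NIBAN1, SESN2, GPT2 and ATF4 the vehicle and SNX631 libraries of dKO-8 part without overlap, while HSPA5 is widest apart in Rv1-WT.

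Amino acid synthesis genes were called lower in 6 of 19 cases and higher in 0, with a median of −0.51 and a summed level of 4588 to 4628 CPM in vehicle and 3150 to 3185 CPM with SNX631. ASNS (chr7:97852118-97872542), asparagine synthetase, read 203, 206 and 198 CPM in vehicle and 90.8, 89.2 and 91.0 CPM with SNX631 (−1.16, SE 0.0932, FDR 1.11e-11). The groups did not overlap, with fractional counts in 58.3% of libraries. GPT2, the mitochondrial alanine transaminase, read 253, 250 and 247 CPM in vehicle and 138, 135 and 138 CPM with SNX631 (−0.87, SE 0.0387, FDR 1.23e-25). ALDH1L2, a mitochondrial folate dehydrogenase, read 231, 232 and 239 CPM in vehicle and 108, 109 and 108 CPM with SNX631 (−1.11). Neither gene had overlapping groups. The serine enzyme PSAT1 fell by 0.73 and the folate enzymes MTHFD2 and MTHFD1L by 0.62 and 0.59, of which MTHFD1L lay just past the fold limit and lost its call in 4 of 6 fits without 1 library (vehicle replicate 1 or 3, or SNX631 replicate 1 or 3, with log2 fold changes from −0.61 to −0.57). PHGDH (718, 710 and 719 CPM in vehicle, 468, 482 and 484 CPM with SNX631) and SHMT2, the serine and glycine enzymes, each stood at −0.58, under the fold limit.

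Amino acid transporters were called lower in 6 of 15 cases and higher in 0 (median −0.44), and SLC7A3 was at 0. SLC7A11, the cystine carrier, read 153, 155 and 163 CPM in vehicle and 75.4, 78.5 and 77.8 CPM with SNX631 (−1.03, SE 0.131, FDR 4.15e-07). Its shared heavy chain SLC3A2 read 533, 517 and 515 CPM in vehicle and 297, 294 and 287 CPM with SNX631 (−0.83, SE 0.0513, FDR 6.86e-19), and both genes separated without overlap. The leucine carrier SLC7A5 (−0.79, counts fractional in 43.8% of libraries), the glycine carrier SLC6A9 (−0.88) and the neutral amino acid carriers SLC1A4 (−0.82) and SLC1A5 (−0.61) fell too. Of the 20 cytosolic tRNA synthetases only SARS1 was called (268, 274 and 266 CPM in vehicle, 168, 163 and 169 CPM with SNX631, −0.69), although 12 were lower and 2 higher at an FDR under 0.05 (median −0.27).

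Neighbouring stress programs gave other values. Of 21 endoplasmic reticulum (ER) folding genes, 0 were called by edgeR and 0 by DESeq2, with 7 above and 5 below 0 at an unadjusted p under 0.05 and a median of 0.02. HSPA5 (BiP), the main ER chaperone, read 404, 398 and 392 CPM in vehicle and 442, 428 and 430 CPM with SNX631 (0.12, FDR 0.106). The unfolded protein response factors XBP1 (−0.49), ATF6 (−0.45), ERN1 (−0.46) and HERPUD1 (−0.31) had FDRs under 0.05 below the fold limit. The secreted ER factor MANF (0.30), CALR (0.19), HSP90B1 (0.16) and PDIA4 (0.18) were on the other side of 0 with FDRs under 0.05. Of 16 cytosolic heat shock genes, 0 were called by edgeR and 0 by DESeq2, while 12 were above and 1 below 0 at an unadjusted p under 0.05 (median 0.17). Among all 20009 genes, 5060 had an unadjusted p under 0.05 in either direction.

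Immediate early and AP-1 genes were called lower in 4 of 22 cases and higher in 0 (median −0.30), namely JUN, EGR1, EGR3 and ATF3, which also stands in the stress list. JUN, an AP-1 subunit, read 56.8, 49.1 and 55.8 CPM in vehicle and 28.6, 29.3 and 30.3 CPM with SNX631 (−0.88, SE 0.0726, FDR 4.35e-14). EGR1, a serum-induced zinc finger factor, read 6.05, 7.27 and 7.18 CPM in vehicle and 2.11, 1.78 and 3.06 CPM with SNX631 (−1.57, SE 0.148, FDR 1.16e-12). Neither overlapped, and its relative EGR3 fell by 1.97. MYC read 249, 250 and 250 CPM in vehicle and 186, 198 and 201 CPM with SNX631, under the fold limit (−0.36).

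Androgen response genes moved in both directions. Of 26 genes, 4 were called higher and 2 lower, with a median of 0.00. TMPRSS2 (chr21:41464551-41531116), a surface serine protease, read 8.06, 8.94 and 7.37 CPM in vehicle and 21.3, 19.7 and 18.7 CPM with SNX631 (1.30, SE 0.0812, FDR 3.60e-19). SLC45A3 (prostein) read 20.8, 22.0 and 20.9 CPM in vehicle and 11.1, 11.8 and 10.4 CPM with SNX631 (−0.93, SE 0.089, FDR 2.45e-12). Both genes separated without overlap, in opposite directions. The elongation factor ELL2 (0.60), the protease KLK4 (0.80, counts fractional in 47.9% of libraries) and AZGP1 (0.61) rose. KLK3 (PSA), at 1.06 to 3.14 CPM, fell by 0.91. Leaving out 1 library removed the call of KLK3 in 4 of 6 fits (vehicle replicate 2 or 3, SNX631 replicate 1 or 3; log2 fold change −1.21 to −0.73, highest FDR 0.0337) and of AZGP1 in 2 (vehicle replicate 1 or SNX631 replicate 3; highest FDR 0.0176). FKBP5, a standard androgen target, had a log2 fold change of 0.01 (FDR 0.962).

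The label of a prostate epithelial line held against its markers. All 14 luminal prostate markers were above the filter, and their summed level was 5628 to 5747 CPM in vehicle and 6203 to 6337 CPM with SNX631. HOXB13 (0.40), KRT8 (0.35, counts fractional in 50% of libraries) and FOXA1 (−0.19) had FDRs under 0.05 without reaching the fold limit. Markers of other cell types were mostly at or near 0, and their part in the results was not tested. Of 6 basal markers 3 were tested, and the basal sum was 1.22 to 1.87 CPM in vehicle and 2.11 to 2.74 CPM with SNX631, with KRT5 at 0, which allows up to 0.114 to 0.152 CPM at 3 counts in a library. Of 8 fibroblast markers 5 were tested, and their sum was 5.65 to 7.27 and 6.13 to 7.93 CPM, with THY1 at 0. Of 8 immune markers 4 were tested, with a sum of 4.18 to 4.51 and 2.90 to 3.24 CPM, with CD3E and NKG7 at 0, and of 6 endothelial markers 1 was tested, with a sum of at most 0.332 CPM, with KDR and TEK at 0. The neuroendocrine sum was 162.5 to 168.6 and 148.5 to 151.5 CPM, and of its 9 tested genes only SCGN was called. The plasma cell sum (123.6 to 129.6 and 183.1 to 192.2 CPM) came from SDC1, a syndecan that epithelial cells also make, while IGHG1, IGKC and IGLC2 were at 0.

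**Figure D3:**
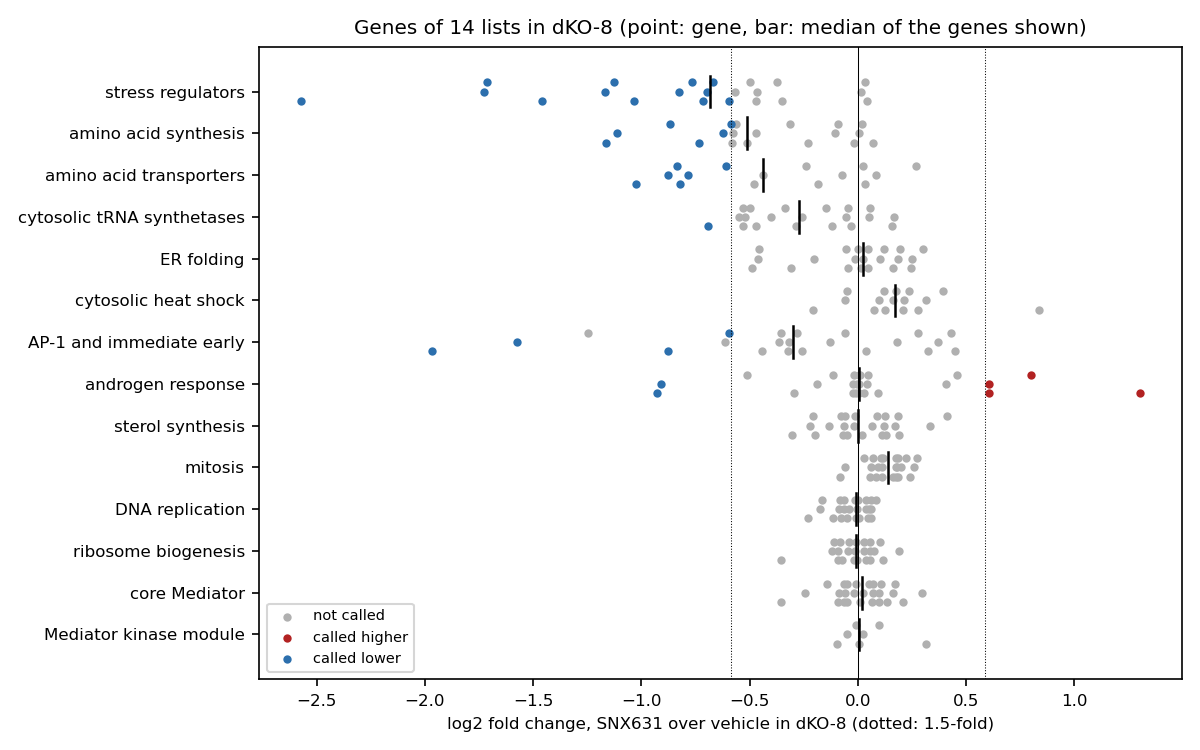
Each row is 1 of 14 gene lists, each point a tested gene at its log2 fold change of SNX631 over vehicle in dKO-8 (x axis; red called higher, blue called lower, gray not called) and each black bar the median of the list, with dotted lines at a 1.5-fold change. Stress regulators (median −0.68), amino acid synthesis (−0.51) and amino acid transporters (−0.44) lie left of 0, while sterol synthesis (0.00), DNA replication (−0.01) and ER folding (0.02) center on 0.

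Growth and lipid programs gave few calls. By edgeR and by DESeq2, 0 genes were called in DNA replication (24 tested, median −0.01), ribosome biogenesis (23, −0.01), mitosis (24, 0.14), sterol synthesis (24, 0.00), fatty acid synthesis (15, 0.08), core Mediator (26, 0.02) and MHC class I (14, 0.04). At an unadjusted p under 0.05, mitosis had 16 genes above and 0 below 0, sterol synthesis 5 and 3, DNA replication 0 and 5, ribosome biogenesis 1 and 4, fatty acid synthesis 6 and 2, core Mediator 5 and 2, and MHC class I 3 and 1. These counts stand beside 5060 of all 20009 genes at that limit, in either direction. The fatty acid elongases ELOVL6 (0.56) and ELOVL5 (0.41) and the cell cycle kinase CDK1 (0.12) had FDRs under 0.05 within the fold limit.

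Single genes were called in several other lists. The Wnt antagonist RNF43 rose (11.9, 12.4 and 12.2 CPM in vehicle, 21.0, 20.9 and 23.2 CPM with SNX631, 0.83, counts fractional in 58.3% of libraries), as did the prolyl hydroxylase EGLN3 (0.65) in the hypoxia list of 27. The NF-kB antagonist RNA NKILA fell by 1.01, the only call among 15 NF-kB genes. Keratins had 2 of 6 genes called higher. KRT19 read 594, 573 and 568 CPM in vehicle and 905, 923 and 926 CPM with SNX631 (0.67, SE 0.128, FDR 0.000276). KRT15, EGF, IFI44L, ID1 and ID2 were also called higher, but each lost its call without single libraries. For KRT15, ID1 and ID2 this held for each of the 6 libraries in turn (highest FDR 0.119, 0.0463 and 0.0281), and for EGF and IFI44L without vehicle replicate 3, SNX631 replicate 1 or SNX631 replicate 3 (highest FDR 0.0384 and 0.0181).

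The largest increases with clear levels were in genes of varied function. Among called genes with a mean of at least 1 CPM, separated groups and few fractional counts, ST8SIA1 (chr12:22063773-22437041), which makes the ganglioside GD3, had the largest log2 fold change, with 1.49, 1.10 and 1.14 CPM in vehicle and 5.52, 5.23 and 6.601 CPM with SNX631 (2.21, SE 0.197, FDR 2.1e-13). MGP (chr12:14881181-14885926), matrix Gla protein, read 14.6, 13.8 and 13.02 CPM in vehicle and 42.1, 43.2 and 43.7 CPM with SNX631 (1.64, SE 0.0941, FDR 1.25e-20). MFSD2A (chr1:39955112-39969968), a carrier of lysophospholipids with omega-3 fatty acids, read 15.6, 14.2 and 15.02 CPM in vehicle and 41.0, 39.97 and 40.8 CPM with SNX631 (1.44, SE 0.0767, FDR 4.86e-22). In all 3 genes every SNX631 library lay above every vehicle library. The lectin REG4 (1.91), the lysophosphatidic acid receptor LPAR5 (1.76), the tyrosine-breakdown enzyme HGD (1.52), the sodium-proton exchanger SLC9A2 (1.51), LINC02343 (1.47), the synaptic protein CBLN2 (1.41), PALM3 (1.39), ZNF385B (1.35) and the calcium sensor SCGN (1.35) followed, at up to 10.2 CPM. PALM3 lost its call without vehicle replicate 1 or SNX631 replicate 1 (highest FDR 0.0277).

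Among called genes that passed the same limits on level, group separation and fractional counts, the largest decreases were led by APOL6 (chr22:35648395-35668409), an apolipoprotein L family member, at 3.50, 2.93 and 2.79 CPM in vehicle and 0.156, 0.581 and 0.424 CPM with SNX631 (−2.99, SE 0.292, FDR 3.87e-12). NIBAN1, EGR3 and CHAC1, described above, were among the 12 largest. IGF1, insulin-like growth factor 1, read 4.51, 4.86 and 4.59 CPM in vehicle and 1.64, 1.08 and 1.79 CPM with SNX631 (−1.63, SE 0.186, FDR 5.87e-10). DMGDH, which demethylates dimethylglycine in choline breakdown, read 13.8, 15.3 and 14.7 CPM in vehicle and 5.32, 4.52 and 4.06 CPM with SNX631 (−1.64, SE 0.153, FDR 6.12e-12). Neither overlapped. The extracellular glycoprotein RELN (−1.88), the lipid-binding OSBPL6 (−1.71), LINC00365 (−1.70), the branched-chain transaminase BCAT1 (−1.61) and nephrin, NPHS1 (−1.59), fell as well. The chloride channel BEST1 (−1.74) lost its call when any of the 6 libraries was left out (FDR 0.01 to 0.0234).

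Whether the effect differed from that in cells with kinase-inactive CDK8 was tested as the difference of both SNX631 effects. It was called for 181 of 20009 genes, 0.905%, with 70 more positive (0.35%) and 111 more negative (0.555%) in dKO-8. In dKO-8M itself, edgeR called 0 genes higher and 3 lower (0.015%), with 991 above and 919 below 0 at an unadjusted p under 0.05. None of the 342 was called there, and 20 of the higher and 41 of the lower genes had an unadjusted p under 0.05 in the same direction. Of the 342 genes called in dKO-8, 131 (38.3%) differed from dKO-8M, 46 of the higher and 85 of the lower. The 342 were chosen on the same dKO-8 libraries that enter this difference and those below, so such overlaps are partly built in. DDIT3 in dKO-8M read 25.3, 25.0 and 26.8 CPM in vehicle and 21.5, 23.2 and 22.2 CPM with SNX631, so its effect was −0.20 there, a difference of −1.25 (SE 0.0864, FDR 7.86e-17). ASNS in dKO-8M read 106.5, 102.5 and 105.4 CPM in vehicle and 93.2, 94.0 and 95.7 CPM with SNX631 (difference −1.01, FDR 2.47e-06). NIBAN1 in dKO-8M read 4.61, 5.12 and 5.03 CPM in vehicle and 3.33, 3.12 and 3.02 CPM with SNX631 (difference −1.94, FDR 4.89e-08). Vehicle dKO-8M thus lay near SNX631-treated dKO-8 for each of these genes, a comparison of levels between lines that was not tested. Differences were also called for CHAC1 (−1.44), SESN2 (−0.91), EIF4EBP1 (−0.66), CEBPG (−0.61), SLC3A2 (−0.63), GPT2 (−0.72), JUN (−0.98) and EGR1 (−1.23).

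MFSD2A had the lowest p among genes more positive in dKO-8 than in dKO-8M. It read 20.7, 19.2 and 18.4 CPM in vehicle dKO-8M and 14.1, 14.4 and 13.9 CPM with SNX631, an effect of −0.47 against 1.44 in dKO-8 (difference 1.91, SE 0.113, FDR 2e-19). For TMPRSS2 the dKO-8M libraries read 15.9, 17.3 and 17.2 CPM in vehicle and 19.3, 19.3 and 19.5 CPM with SNX631 (difference 1.09, SE 0.109, FDR 1.13e-10). The cell cycle inhibitor SFN (0.67), the repressor HES7 (0.86) and the phospholipid enzyme LPCAT3 (0.64) also had more positive effects in dKO-8. By list, 8 stress regulators, 4 amino acid synthesis genes and 3 transporters had more negative effects in dKO-8 than in dKO-8M, and 0 had more positive ones.

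The effect in dKO-19, where the active kinase is CDK19, differed from that in dKO-8 for 177 genes (0.885%), 61 more positive (0.305%) and 116 more negative (0.58%) in dKO-8, and 30 of these were among the 342 (8.77%). The 3 sets of differences share the dKO-8 libraries. In dKO-19, 79 of the 131 higher genes (60.3%, background 1.87%) and 110 of the 211 lower genes (52.1%, background 1.53%) were called in the same direction, and 1 in the opposite one. The median log2 fold changes of the higher and lower genes were 0.94 and −0.68 in dKO-19, 0.10 and −0.13 in dKO-8M, and 0.92 and −0.83 in dKO-8, which chose them. The stress regulators had a median of −0.59 in dKO-19 with 11 lower calls, and 0 of 22 differed between the lines. NIBAN1 in dKO-19 read 8.34, 8.22 and 8.51 CPM in vehicle and 1.63, 1.42 and 1.69 CPM with SNX631, an effect of −2.41 from a lower start. CHAC1 in dKO-19 read 28.7, 27.2 and 25.4 CPM in vehicle and 6.51, 6.99 and 7.07 CPM with SNX631 (−1.98).

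Some genes responded differently in dKO-8 than in dKO-19. The kinase put back, its amount and the way the line was made differ together here, and their parts were not tested. CCDC85A read 4.42, 4.97 and 5.18 CPM in vehicle and 4.23, 5.06 and 4.81 CPM with SNX631 in dKO-8, where the groups overlapped (−0.05, FDR 0.866). In dKO-19 it read 3.20, 2.57 and 2.92 CPM in vehicle and 15.5, 13.9 and 13.4 CPM with SNX631 (2.30), a difference of −2.35 (SE 0.2, FDR 4.86e-13). The synaptic protein RIMS3 showed the same order (−0.10 in dKO-8, 0.89 in dKO-19, difference −0.98), and the antiproliferative gene BTG1 (0.45 and 1.16), the calcineurin subunit PPP3CA (0.51 and 1.15) and ITPRID2 (0.50 and 1.60) had smaller positive effects in dKO-8. SLC45A3 was called lower in both lines and by more in dKO-19 (−0.93 and −2.21, difference 1.28, FDR 2e-10), as was NKILA (−1.01 and −2.10). The interleukin-6 receptor IL6R (−0.46 and −1.34), tissue factor F3 (0.24 and −0.57) and the protease CAPN2 (0.31 and −0.48) had more positive effects in dKO-8.

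**Figure D4:**
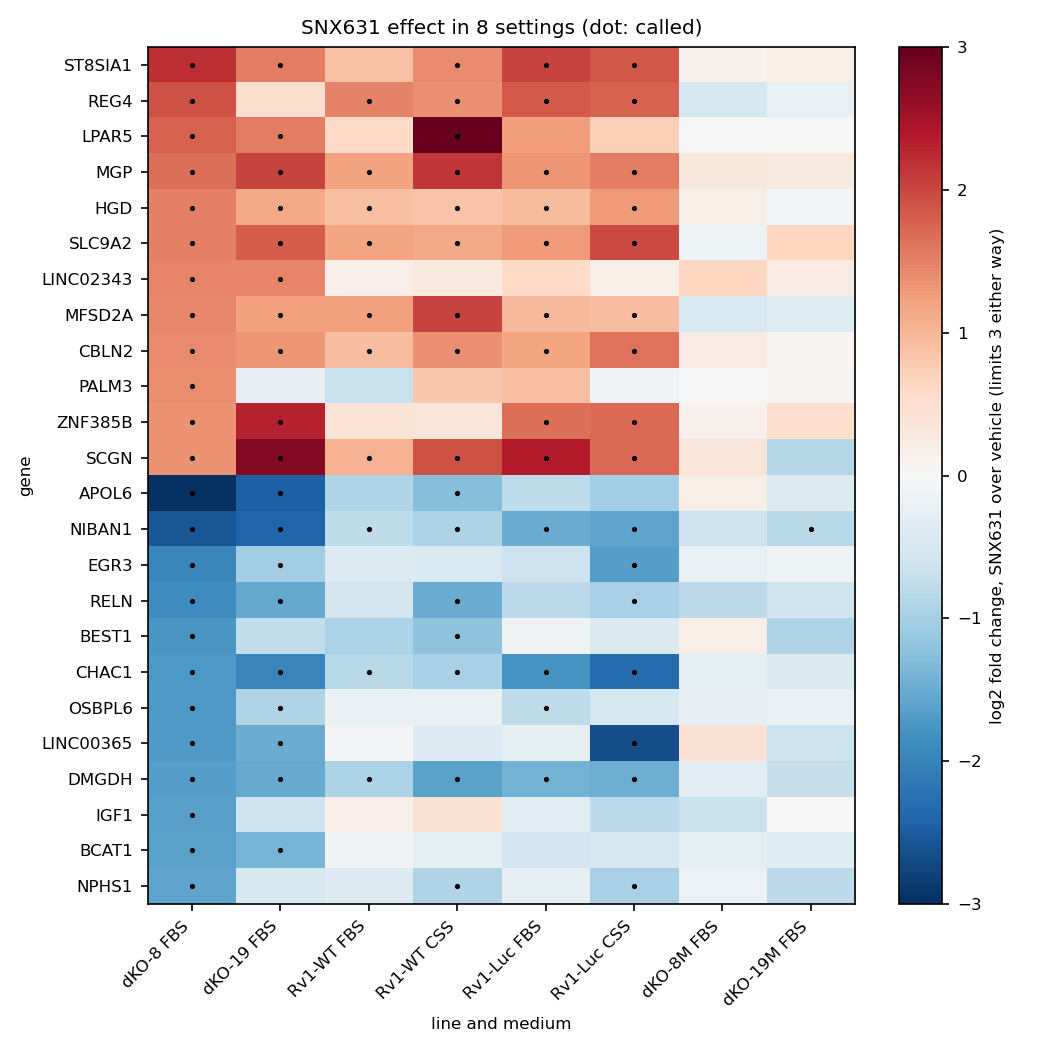
Each row is 1 of the 24 genes with the largest changes in dKO-8 among called genes of at least 1 CPM with separated groups and few fractional counts, and each column a line and medium, with color for the log2 fold change of SNX631 over vehicle (limits at 3 either way) and a dot where the gene was called. The colors of dKO-8 recur mostly in dKO-19 and are pale in dKO-8M, where no dot stands.

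Against Rv1-WT, 284 genes (1.42%) had a different effect, 50 more positive (0.25%) and 234 more negative (1.17%) in dKO-8, and 96 of the 342 were among them (28.1%, 12 higher and 84 lower). Of the dKO-8 genes, 48 higher (36.6%) and 28 lower (13.3%) were called in the same direction in Rv1-WT, against backgrounds of 1.75% and 0.645%. The stress regulators had a median of −0.21 and 3 lower calls in Rv1-WT, and 8 of 22 had more negative effects in dKO-8. GPT2 stood at −0.10 in Rv1-WT and −0.87 in dKO-8 (difference −0.77, SE 0.0548, FDR 2.73e-16). ALDH1L2 differed by −1.13, IGF1 by −1.78 and NIBAN1 by −1.81. ASNS read 251, 248 and 256 CPM in vehicle Rv1-WT and 175, 162 and 167 CPM with SNX631 (−0.58), and its difference was not called.

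Of 21 ER folding genes, 4 (HSPA5, HSP90B1, PDIA4 and MANF) had more positive effects in dKO-8 than in Rv1-WT and 1, XBP1, a more negative one (difference −0.62). HSPA5 in Rv1-WT read 932, 940 and 894 CPM in vehicle and 553, 541 and 523 CPM with SNX631, so its vehicle level was above that in dKO-8, and its effect of −0.77 differed from the 0.12 in dKO-8 by 0.90 (SE 0.0718, FDR 4.25e-14). HSP90B1 (difference 0.83, counts fractional in 50% of libraries), PDIA4 (0.87) and MANF (0.75) gave the same order, as did the small heat shock protein HSPB1 (0.67) and the histone pseudogene H2BC20P (0.70). HSPA5 did not fall in dKO-19 or dKO-8M either. In dKO-19 it read 539.5, 526.4 and 534 CPM in vehicle and 564.4, 534.4 and 549.5 CPM with SNX631. In dKO-8M it read 452.2, 447.9 and 455.2 CPM in vehicle and 457.2, 464.8 and 466 CPM with SNX631. SYT4, a synaptotagmin of secretory vesicles, read 33.0, 33.8 and 33.0 CPM in vehicle and 28.4, 27.6 and 27.5 CPM with SNX631 in dKO-8 (−0.26). In Rv1-WT it read 119, 124 and 126 CPM in vehicle and 268, 301 and 287 CPM with SNX631 (difference −1.47, SE 0.078, FDR 1.43e-21). In dKO-19 SYT4 read 30.6, 35.1 and 34.3 CPM in vehicle and 41.7, 38.95 and 37.1 CPM with SNX631, a smaller rise than in Rv1-WT. BTG1 (−0.85), the pseudokinase TRIB1 (−1.06) and the exchange factor NET1 (−0.67) also had effects that were more positive in Rv1-WT. Of 24 sterol synthesis genes, 2 had more positive effects in dKO-8 than in Rv1-WT, and the list median was 0.00 in dKO-8, −0.35 in Rv1-WT, −0.28 in dKO-19 and −0.15 in dKO-8M.

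Effects across these lines overlapped only in part. Of the 342 genes, 158 differed from none of the 3 other lines and 49 differed from dKO-8M and Rv1-WT but not from dKO-19. Over all 20009 genes, 0.905% differed from dKO-8M, 0.885% from dKO-19 and 1.42% from Rv1-WT. A difference that was not called does not mean equal effects, and none of the 342 was called in dKO-8M. Another count, of genes called in the same direction in dKO-8 and dKO-19 that differed from both dKO-8M and Rv1-WT, gave 35. Only 4 differed from all 3 lines, and were named after their values were seen. GPX8, an ER-resident peroxidase, read 25.1, 25.7 and 25.5 CPM in vehicle and 8.92, 9.50 and 9.19 CPM with SNX631 in dKO-8 (−1.47, SE 0.0947, FDR 1.22e-18), against effects of −0.30 in dKO-8M, −0.47 in dKO-19 and −0.27 in Rv1-WT. The protocadherin PCDHB6 stood at −1.40 in dKO-8 and between −0.40 and −0.15 elsewhere. NKILA (−2.10 in dKO-19, −1.66 in Rv1-WT, 0.07 in dKO-8M) and ZNF385B (2.30, 0.42 and 0.13 in that order) had dKO-8 effects between those of other lines. Over the 5 other settings with an active kinase (dKO-19, and Rv1-WT and its luciferase-carrying subline Rv1-Luc in FBS or androgen-depleted CSS medium), 110 of the 342 were called in the same direction in none, and 49, of which 34 were higher, in all 5. Among all genes tested, 1.87%, 1.75%, 2.97%, 2.32% and 2.45% were called higher in dKO-19, Rv1-WT in FBS, Rv1-WT in CSS, Rv1-Luc in FBS and Rv1-Luc in CSS, and 1.53%, 0.645%, 1.25%, 1.34% and 1.61% were called lower. In dKO-19M, which carries CDK19 with the same kind of inactivating mutation, 0 of the 131 higher genes (background 0.03%, 18 at an unadjusted p under 0.05 in that direction) and 5 of the 211 lower genes (background 0.06%, 78 at an unadjusted p under 0.05 in that direction) were called. The stress regulators had 3 lower calls and a median of −0.23 in dKO-19M, against 0 calls and −0.16 in dKO-8M. Vehicle replicate 1 of dKO-19M stood apart from replicates 2 and 3. The chi-square of their count differences per degree of freedom was 16 and 15.5, against 1.42 between replicates 2 and 3. The dKO-19M counts were not repeated without that library.

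**Figure D5:**
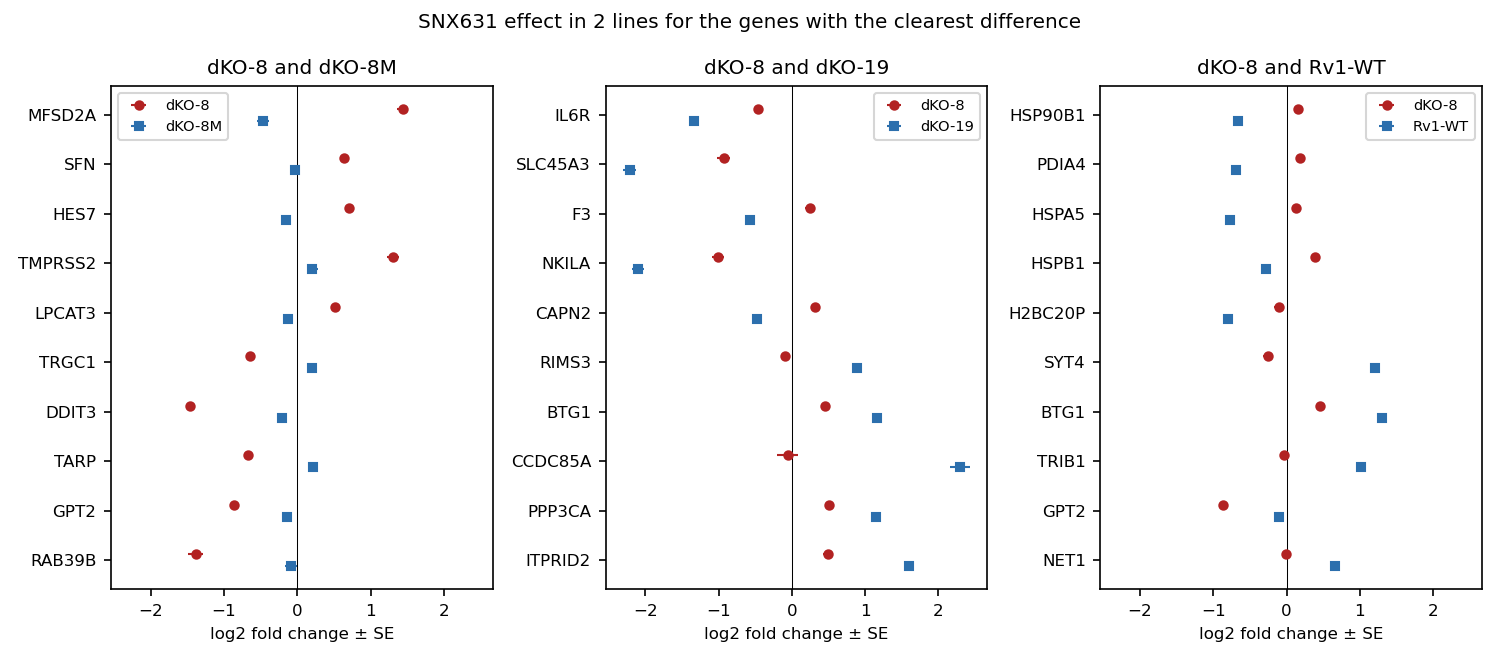
Each of 3 panels shows the log2 fold change of SNX631 over vehicle with its SE (x axis) for 10 genes in dKO-8 (red circles) and in dKO-8M, dKO-19 or Rv1-WT (blue squares), the 5 genes of lowest p in each direction of the difference. The pairs lie farthest apart for CCDC85A (−0.05 and 2.30), MFSD2A (1.44 and −0.47) and SYT4 (−0.26 and 1.21).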

How the data were processed

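Per the labels, strand-specific libraries were made from total RNA of 48 cell cultures. The submitters' processing notes name FastQC, cutadapt 2.8, STAR 2.7.2b, featureCounts, Subread 2.0.3 and the builds GRCh38.p13 and GRCm39. The annotation release and count settings are not given in the sources used here. The deposited values are expected counts that the authors made per gene, unscaled, of which 81.6% of nonzero values are whole. How the fractions arose was not tested. Of 61817 entries, 2 transgenes were left out of totals and tests.

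Counts were rounded and filtered with filterByExpr (minimum count 10, minimum total 15), which kept 20009 genes. edgeR 4.0.16 (limma 3.58.1, R 4.3.3) fitted all 48 libraries in 16 groups, with 32 residual degrees of freedom, TMM factors (0.965 to 0.98 in dKO-8), no covariate and the robust two-sided quasi-likelihood test. Differences of effects were interaction contrasts, adjusted per contrast by Benjamini-Hochberg. Calls needed an FDR under 0.01 together with a fold change over 1.5, thresholds taken from the methods of the study. dKO-8 libraries held 19.7 to 26.3 M counts, dKO-8M 19.3 to 31.5 M, dKO-19 20.5 to 24.8 M and Rv1-WT in FBS 13.2 to 18 M. No batch is labelled.

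Genes named are the 12 largest changes per direction among called genes of at least 1 CPM with separated groups and few fractional counts, up to 6 called genes per list by p, the kinase module, the 5 lowest p per direction of each difference, and luminal markers. The members and the 31 gene lists were chosen with earlier results of these data known, and lists overlap. The comparison was tested on simulated data. DESeq2 1.42.0 and other settings were alternatives. Gene positions are from GRCh38, promoters from RefSeq. Some luminal markers are not reported here.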

Additional observations from a re-analysis of the deposited data

Results flagged for a closer look

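The SNX631 effect differed between dKO-8 and another line, by an interaction test, for 181 genes against dKO-8M, 177 against dKO-19 and 284 against Rv1-WT. On the log2 scale, the effect in dKO-8 minus that in dKO-8M was 1.91 for MFSD2A, 0.673 for SFN, 0.857 for HES7, 1.09 for TMPRSS2 and 0.639 for LPCAT3. It was −0.845 for TRGC1, −1.25 for DDIT3, −0.877 for TARP, −0.721 for GPT2 and −1.3 for RAB39B, a small GTPase. TRGC1 and TARP, overlapping T cell receptor gamma loci, had fractional counts in 97.9% and 93.8% of libraries and cannot be told apart. RAB39B read 14.7, 14.96 and 14.6 CPM in vehicle dKO-8 and 4.89, 5.85 and 6.22 CPM with SNX631.

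The effect in dKO-8 minus that in dKO-19 was 0.881 for IL6R, 1.28 for SLC45A3, 0.814 for F3, 1.09 for NKILA and 0.792 for CAPN2. It was −0.985 for RIMS3, −0.707 for BTG1, −2.35 for CCDC85A, −0.635 for PPP3CA and −1.1 for ITPRID2. Against Rv1-WT it was 0.828 for HSP90B1, 0.869 for PDIA4, 0.897 for HSPA5, 0.672 for HSPB1 and 0.696 for H2BC20P. It was −1.47 for SYT4, −0.854 for BTG1, −1.06 for TRIB1, −0.765 for GPT2 and −0.674 for NET1.

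The blasticidin resistance transgene BlastR, left out of the tests, was read at a mean of 23.4 CPM in vehicle dKO-8 (22.2 to 25.3) and 15.4 CPM with SNX631 (15 to 15.9), a ratio of 0.657. In dKO-19 the ratio was 0.727, and in the lines with inactive kinase it was 1.01 (dKO-8M) or 0.997 (dKO-19M). In Rv1-Luc, whose kinases are active, it was 0.954 in FBS and 0.932 in CSS, from vehicle means of 84.5 and 87.6 CPM. Rv1-WT libraries held 0 counts. These ratios were not tested.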

How the results depend on the processing

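With 342 genes called in dKO-8, other settings gave 338 (RLE size factors), 349 (no filter), 317 (DESeq2), 400 (only the libraries of the contrast) and 273 to 292 without single libraries, of which 193 genes were called in all 6 fits. The threshold moved counts most. An FDR under 0.05 without a fold limit gave 2705 genes, and 173 of the list genes in place of 45, and a test against a 1.5-fold change gave 62 and 17. For differences, these thresholds gave 1240 and 11 genes against dKO-8M, 955 and 16 against dKO-19, and 1702 and 31 against Rv1-WT. Fitting only the libraries of the contrast gave 299 against dKO-8M. Without single libraries, the list genes numbered 37 to 43 and the differences 151 to 162, 141 to 175 and 242 to 272. Direction was compared for the genes named by rule, and no called effect or difference among them was reversed. Replicate numbers did not pair the samples (correlations of same-numbered deviations −0.0255, 0.00372 and −0.0317), and a fit with a replicate block called 334 genes, 322 of them shared. Apart from leaving out libraries, MTHFD1L left the call under 3 settings, KRT15 under DESeq2, BEST1 under the replicate block, and FGF21 without the filter (FDR 0.018), under DESeq2 (0.0221) and under the block (0.0179), while IFI44L was not tested with only the libraries of the contrast. With 3 libraries a group and a median SE of 0.504 below 1 CPM, small changes of weakly expressed genes were not detectable.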
